A study of Mus musculus with 10 samples.

Results

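The 35 genes described here mark homeostatic microglia, the resident macrophages of the brain, and include genes that microglia share with other macrophages. They were chosen by symbol: every row of the expression table whose gene symbol stood on a list of 35 names was taken, and 35 of 35 were found among the 18216 genes of the table. The tissue was prefrontal cortex, taken at postnatal day 10 (P10) from 10 C57BL/6N males, and RNA-Seq had been performed on 1 library per mouse. 5 mice were Arid1b heterozygotes (Arid1b+/-, HT1 to HT5) and 5 were wild-type (WT1 to WT5), and the labels name no treatment for either group. The mutant allele, made with CRISPR/Cas9, carries a deletion at exon 5 with the bases TT inserted in its place, which truncates the protein, and as a germline mutation it is present in microglia and in every other cell of the HT mice. Arid1b encodes a subunit of the BAF chromatin-remodeling complex. The question addressed is whether the expression of these genes differed between Arid1b+/- and WT mice, and how it varied from mouse to mouse.

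Microglia enter the brain before birth, multiply there in the first postnatal weeks and clear dying cells and surplus synapses while the cortex matures. The transcription factors PU.1 and IRF8 set up the lineage, signaling through the CSF1 receptor keeps the cells alive, and TGF-beta with the transcription factor SALL1 maintains the surveying, homeostatic state. That state is known for nucleotide and chemokine receptors such as P2RY12 and CX3CR1, whereas phagocytic microglia carry more TREM2, TYROBP and lysosomal proteins.

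Values are normalized counts, that is, estimated read counts divided by a size factor for each library. The targeted gene followed the labels: Arid1b (ENSMUSG00000069729) measured 1894 ± 86.6 normalized counts in HT and 2842 ± 142 in WT mice (SD, n = 5 each), a log2 difference of -0.59 (SE 0.05) at a limma adjusted p of 9.96e-05, with no overlap. The libraries summed to 31106330 to 32106791 normalized counts, which are set by the normalization, so the number of reads behind each value is unknown. As to the label of the gene list, the homeostatic markers P2ry12, Cx3cr1 and Tmem119 were measured in every mouse, at 516 or more normalized counts. Of 10 markers of other blood leukocytes, 2 were in the table. Ccr2 was at 28.9 normalized counts in HT5 and at 3.33 to 14.3 in the other mice, and S100a9 was at 2.10 to 16.5. HT2 stood apart from the other libraries in its mitochondrial share (8.43% against 5.15% to 6.76%), and HT5, WT3 and WT5 had the lowest sums of 10 striatal markers (6526 to 7528, against 14838 to 22903 in the other 7 mice).

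No member of the list passed the test between genotypes after adjustment over all genes, and most members had a slightly higher mean in Arid1b+/- mice. The test was limma on log2(normalized count + 1) over the 16781 genes that averaged at least 10, a filter that 35 of 35 members passed. 0 of 35 members had an adjusted p under 0.05 (smallest 0.48, for Laptm5), where 0.0179% of all genes did. At an unadjusted p under 0.05, 8 members were higher in HT mice, against a background of 4.71% of all genes, and 0 were lower, against 4.52%. By sign alone 32 of 35 members were higher in HT mice, against 48.8% of all genes, and 3 (Tgfbr1, Olfml3 and Mrc1) were lower. The median log2 fold change over the members was 0.17 (range -0.06 to 0.45), and over all genes tested it was -0.0035. In 0 of 35 members were the 5 HT mice clear of the 5 WT mice, as they were in 1.62% of all genes. HT2 or HT5 was the highest mouse in 31 of 35 members, so leaving them out and no WT mouse lowers the HT mean by construction. Values without them are given as a description of how far the differences rest on these mice. Without HT2 and HT5 the median over the members was 0.0028 (-0.0014 over all genes tested), 18 of 35 were higher by sign, against 49.5% of all genes, and 0 passed an unadjusted p under 0.05, with 2.95% of all genes then higher at that level. Leaving out a single mouse changed the count of 8 to 2 without HT2 (3.59% of all genes were then higher at that level), to 2 without HT5 (3.51%), to 17 without HT3 (5.60%), to 4 without WT1 (4.56%), to 5 without WT3 (3.37%) and to 5 without WT4 (5.76%). Of the 8 members, Laptm5 kept an unadjusted p under 0.05 with any 1 mouse left out. Mertk lost it without HT5 or WT4, Trem2 without HT2, HT5 or WT5, Ly86 without HT2, HT5 or WT1, Ctss without HT2, HT5, WT1 or WT4, and C1qb without those 4 or WT3. C1qa lost it without HT2, HT4, HT5, WT1, WT2 or WT3, and Csf3r without any of the mice but HT3, WT1 and WT2. In an exact two-sided permutation test 3 of 35 members (Laptm5, Trem2 and Ly86) had a p under 0.05, against 8.77% of all genes. The share of the members is near this background. The remaining mice also differed in other markers: without HT2 and HT5, 10 of 10 striatal markers were higher in HT mice (median log2 fold change 0.95, 6 at an unadjusted p under 0.05), 10 meningeal markers had a median of -0.25 (4 at an unadjusted p under 0.05), and 5 of 5 red blood cell markers were lower (median -0.38, 4 at an unadjusted p under 0.05), where 3.07% of all genes were lower at that level. HT5 had the lowest striatal sum of the HT mice (7528), and WT3 (6526) and WT5 (6889) were kept. Leaving out HT5 thus raises the HT striatal values by construction. HT2 and HT5 had the highest meningeal sums, so leaving them out lowers the HT meningeal values in the same way. The tissue was sequenced in bulk, so more microglia and more RNA per microglial cell cannot be told apart in any of these values.

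Since PU.1, itself encoded by a member, binds DNA at sites with a GAGGAA core, the sequence just upstream of the members' start sites was searched for that string. GAGGAA, or its reverse complement TTCCTC, occurred within the 250 bases upstream of the RefSeq start in 18 of the 27 members that had such a window (66.7%) and in 25.9% of 27025 mouse genes. The longer GAGGAAGT, which contains GAGGAA and was also searched on both strands, occurred in 3 of 27 members (11.1%; C1qc, Inpp5d and Pf4) and in 2.79% of genes. These strings were picked after other strings had been looked at, so the shares are descriptions, and a match is not a bound site. Of the 19 members highest in HT5, 16 had a window and 13 of these held the string. Of the 12 highest in HT2, 7 had a window and 2 of these held it. Each split rests on a single mouse, the share among all genes highest in that mouse was not counted, and the difference was not tested. The windows of 6 members that overlap no annotated exon are given from RefSeq (GRCm38.p6), 5′ to 3′ on the strand of the gene and ending at the base before its start, with the matches in capitals. Trem2, Ctss and C1qb are shown from the members highest in HT5 and carry the string, P2ry13 and Itgam are the 2 matching windows among the members highest in HT2, and Irf8 is shown as 1 of the 5 of that group without a match. The windows lie at chr17:48346151-48346400, plus strand (Trem2), chr3:95526536-95526785, plus strand (Ctss), chr4:136886201-136886450, minus strand (C1qb), chr3:59210883-59211132, minus strand (P2ry13), chr7:128062390-128062639, plus strand (Itgam) and chr8:120736108-120736357, plus strand (Irf8, the upstream of its 2 starts).
Trem2: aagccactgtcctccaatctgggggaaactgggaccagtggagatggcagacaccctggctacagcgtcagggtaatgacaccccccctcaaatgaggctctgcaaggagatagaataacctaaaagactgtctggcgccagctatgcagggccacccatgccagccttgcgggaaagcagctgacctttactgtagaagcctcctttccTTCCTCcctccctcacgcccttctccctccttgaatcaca
Ctss: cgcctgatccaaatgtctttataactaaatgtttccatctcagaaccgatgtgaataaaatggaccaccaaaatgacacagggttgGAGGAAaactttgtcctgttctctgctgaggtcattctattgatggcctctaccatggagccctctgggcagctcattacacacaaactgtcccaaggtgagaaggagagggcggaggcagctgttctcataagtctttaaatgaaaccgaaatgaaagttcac
C1qb: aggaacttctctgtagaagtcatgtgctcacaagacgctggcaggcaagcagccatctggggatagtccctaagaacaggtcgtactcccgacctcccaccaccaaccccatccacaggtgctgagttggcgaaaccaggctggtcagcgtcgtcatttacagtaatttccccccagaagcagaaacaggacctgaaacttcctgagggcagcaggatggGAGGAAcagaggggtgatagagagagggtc
P2ry13: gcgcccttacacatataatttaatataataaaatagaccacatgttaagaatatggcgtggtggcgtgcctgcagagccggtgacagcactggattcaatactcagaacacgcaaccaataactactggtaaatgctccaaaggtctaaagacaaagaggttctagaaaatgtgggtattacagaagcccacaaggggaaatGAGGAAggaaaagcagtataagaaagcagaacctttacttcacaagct
Itgam: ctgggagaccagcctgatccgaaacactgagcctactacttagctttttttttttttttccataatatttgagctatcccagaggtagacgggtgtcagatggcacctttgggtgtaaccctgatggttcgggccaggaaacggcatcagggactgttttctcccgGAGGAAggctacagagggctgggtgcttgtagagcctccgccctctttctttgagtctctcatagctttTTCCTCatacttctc
Irf8: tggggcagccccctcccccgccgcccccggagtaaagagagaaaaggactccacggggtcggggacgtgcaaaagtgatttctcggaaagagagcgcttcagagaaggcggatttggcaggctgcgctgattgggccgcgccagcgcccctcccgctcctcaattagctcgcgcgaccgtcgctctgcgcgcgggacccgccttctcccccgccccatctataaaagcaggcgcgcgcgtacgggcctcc

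The match began 40 bases before the start in Trem2, 164 in Ctss, 30 in C1qb and 48 in P2ry13, and Itgam had matches 84 and 15 bases before it. Among members with a window, those highest in HT2 without a match were P2ry12, Cx3cr1, Siglech, Sall1 and Irf8. Those highest in HT5 without a match were Mertk, Fcer1g and Ly86.

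**Figure D1:**
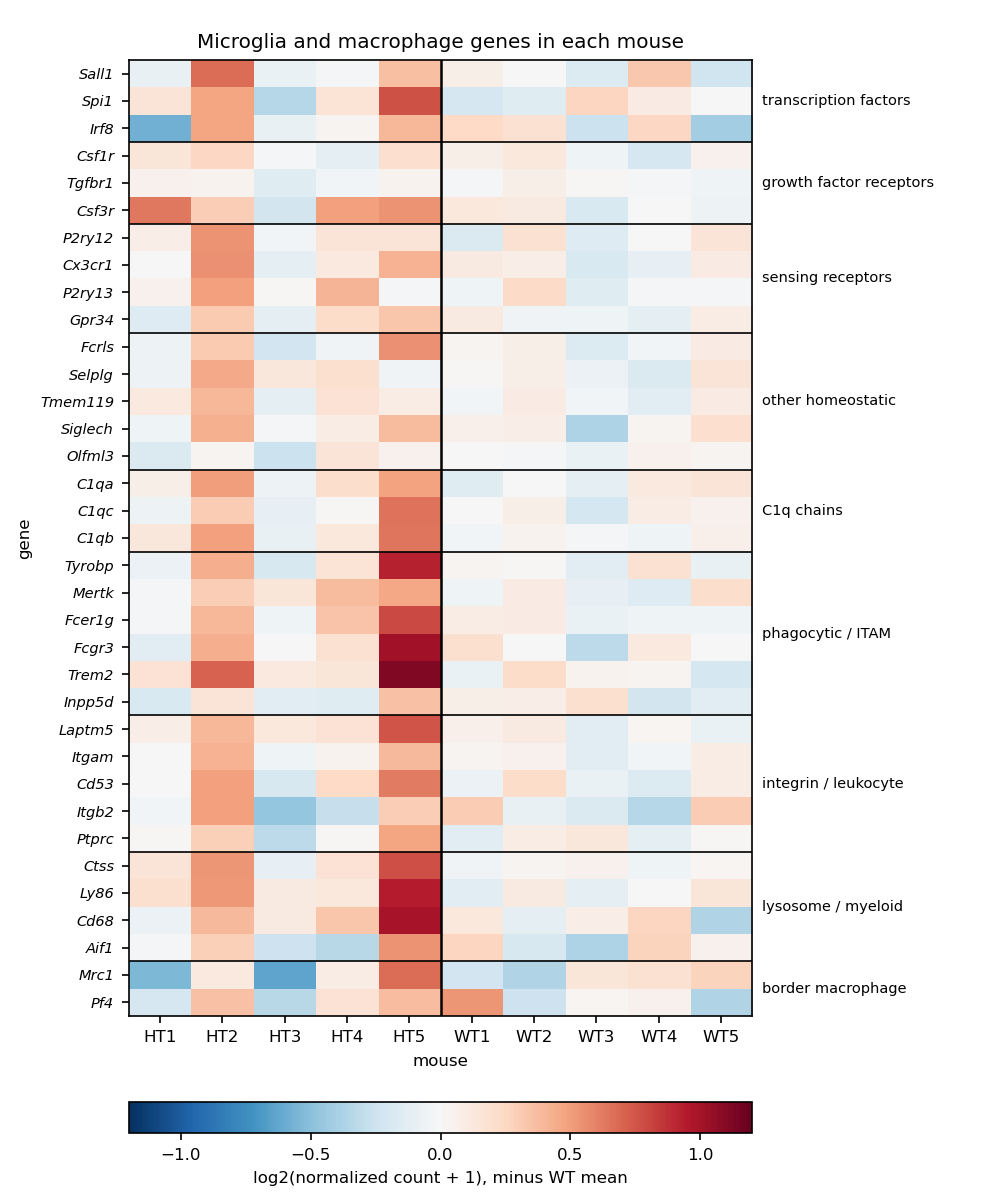
Each row is 1 of the 35 genes and each column 1 mouse, and the color gives log2(normalized count + 1) minus the mean of the 5 WT mice, from blue (lower) to red (higher), with the role groups marked at the right. The columns of HT2 and HT5 are red in most rows, HT5 most deeply in the phagocytic and lysosomal groups, and the columns of HT1, HT3 and the WT mice are pale.

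Of the lineage transcription factors, Spi1 and Irf8 were measured at low levels and Sall1 at a higher one, and 0 of 3 passed an unadjusted p under 0.05. Spi1 encodes PU.1, the master regulator of myeloid cells, and measured 111, 139, 78.4, 112 and 169.6 normalized counts in HT1 to HT5 and 86.6, 90.1, 119, 107 and 99.4 in WT1 to WT5. Irf8, which encodes the interferon regulatory factor that works with PU.1, measured 86.0, 179, 121, 132 and 169.9 in the HT mice and 152, 146, 107, 153 and 96.0 in the WT mice. In both genes HT2 and HT5 were above every WT mouse, while the lowest of the 10 mice was also an HT mouse (HT3 for Spi1, HT1 for Irf8). Sall1, which encodes a zinc-finger factor that among brain macrophages is particular to microglia, measured 784, 1333, 791, 825 and 1075 in HT1 to HT5 and 878, 839.6, 744, 1047 and 708 in WT1 to WT5, again highest in HT2 and HT5. The log2 fold changes were 0.24 (SE 0.18) for Spi1, 0.05 (SE 0.20) for Irf8 and 0.17 (SE 0.15) for Sall1, with limma adjusted p-values of 0.66 or more. Without HT2 and HT5 they were -0.01, -0.21 and -0.06.

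Among the growth factor and TGF-beta receptors, Csf3r was higher in HT mice at an unadjusted p of 0.0436, and Csf1r and Tgfbr1 did not pass. Csf3r (ENSMUSG00000028859, chr4:126024550-126044440, GRCm38), the receptor for granulocyte colony-stimulating factor, measured 150.4, 118, 82.4, 136 and 141 normalized counts in HT1 to HT5 and 106, 104, 84.7, 96.8 and 92.1 in WT1 to WT5. 4 of 5 HT mice lay above all WT mice, and HT3 lay below them. The means were 126 ± 26.7 and 96.7 ± 8.65 (SD, n = 5 each), which is 0.35 (SE 0.16) on the log2 scale (adjusted p of 0.53 from limma, unadjusted exact permutation p of 0.0714), and without HT2 and HT5 the difference was 0.30. Csf3r was the only member highest in HT1, and once HT2 and HT5 were left out it had the largest difference in the direction of higher HT values among the 35. Csf1r encodes the receptor on which microglial survival depends, and measured 3075, 3309, 2743, 2556 and 3196 in the HT mice and 2919.9, 3036, 2676, 2423 and 2877 in the WT mice. HT1, HT2 and HT5 were above all WT mice and HT4 was below all but WT4, with a log2 fold change of 0.09 (SE 0.08). Tgfbr1, a TGF-beta receptor that many brain cells express, was at 1159 to 1333 in HT and 1243 to 1348 in WT mice, the narrowest spread of the list, and is 1 of 2 members in which neither HT2 nor HT5 exceeded the WT mice.

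The chemokine and nucleotide receptors with which microglia sense neurons were higher in HT2 than in any other mouse, apart from Gpr34, and 0 of 4 passed an unadjusted p under 0.05. P2ry12, the receptor for ADP that guides microglial processes, measured 1927, 2649, 1781, 2028 and 2033 normalized counts in HT1 to HT5 and 1620.0, 2080.1, 1636, 1820.5 and 2027 in WT1 to WT5. HT2 was 1.44 times the WT mean, and HT5, at 1.11 times, lay inside the WT range. Cx3cr1, the receptor for the neuronal chemokine fractalkine, measured 1548, 2279, 1436, 1684 and 2081 in the HT mice and 1669, 1637, 1372, 1448 and 1668 in the WT mice. Here HT2 and HT5 were both above the WT mice, as was HT4 by a small margin. P2ry13, another ADP receptor, lies 5.39 kb from P2ry12 on chromosome 3 and ranged over 450.4 to 645 in HT and 413 to 538 in WT mice, with HT2 and HT4 above all WT mice and HT5 inside their range. Gpr34, a lysophosphatidylserine receptor on the X chromosome, ranged over 299 to 419 in HT and 309.8 to 358 in WT mice. The log2 fold changes were 0.18 (SE 0.10) for P2ry12, 0.19 (SE 0.11) for Cx3cr1, 0.19 (SE 0.11) for P2ry13 and 0.12 (SE 0.10) for Gpr34, with limma adjusted p-values of 0.59 or more. With HT2 alone left out they were 0.09, 0.10, 0.11 and 0.07, and with HT5 alone left out Gpr34 was also at 0.07.

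The other homeostatic surface and secreted genes had a median log2 fold change of 0.13, and 0 of 5 passed. Tmem119, a membrane protein used to tell microglia from other macrophages, measured 613, 748, 525, 637 and 603 normalized counts in HT1 to HT5 and 554, 606, 551, 516 and 606 in WT1 to WT5, with HT2 highest, HT5 inside the WT range and a log2 fold change of 0.13 (SE 0.09). Selplg, the P-selectin ligand, lies 18.02 kb from Tmem119 on chromosome 5 and was likewise highest in HT2, which was at 1.37 times the WT mean, with HT5 at 0.97 times. Siglech, a sialic acid-binding lectin, was at 1.33 and 1.29 times the WT mean in HT2 and HT5, and Fcrls, an Fc receptor-like protein, was at 1.24 and 1.46 times. Olfml3, a secreted olfactomedin-like protein, ranged over 518 to 687 in HT and 584 to 639.7 in WT mice and was 1 of the 3 members with a lower HT mean on the log2 scale. In this group HT5 lay nearest to the WT mice of all groups: the median difference from the WT mean on the log2 scale was 0.09 in HT5 and 0.40 in HT2.

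Of the complement C1q chains, C1qa and C1qb were higher in HT mice at an unadjusted p under 0.05 and C1qc did not pass. The 3 genes encode the subunits of C1q, the recognition molecule of the classical complement pathway that tags synapses and debris, and they lie side by side on chromosome 4 (C1qa at chr4:136895917-136898803, C1qc at chr4:136889804-136893065, C1qb at chr4:136880129-136886187, all on the minus strand of GRCm38). C1qa (ENSMUSG00000036887) measured 723, 978, 662, 799 and 963 normalized counts in HT1 to HT5 and 623, 685, 635, 747 and 765 in WT1 to WT5. C1qb (ENSMUSG00000036905) measured 699, 893, 597, 692 and 992 in the HT mice and 621, 653, 625, 613 and 661 in the WT mice. C1qc measured 765, 984, 746, 805 and 1248 in HT1 to HT5 and 798, 835, 687, 849 and 825 in WT1 to WT5. HT2 and HT5 exceeded all WT mice in each chain, and HT3 was below the lowest WT mouse in C1qb only. The means were 825 ± 141 in HT and 691 ± 64.1 in WT mice for C1qa, 775 ± 162 and 635 ± 20.9 for C1qb, and 909.6 ± 212 and 799 ± 65.5 for C1qc (SD, n = 5 each). The log2 fold changes were 0.24 (SE 0.11), 0.26 (SE 0.11) and 0.16 (SE 0.12), with limma adjusted p-values of 0.52, 0.51 and 0.67, and without HT2 and HT5 they were 0.08, 0.06 and -0.05. Without HT5 alone C1qb was at 0.17, and the exact permutation p was 0.0952 for C1qa and 0.0635 for C1qb. The chains kept similar proportions after each was divided by its transcript length. C1qa made up 32.2% to 37.1% of their summed counts per kilobase, C1qb 28.4% to 32.7% and C1qc 31.7% to 36.2% over the 10 mice. The sum of their normalized counts, without division by length, ran from 1947 in WT3 to 3203 in HT5.

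The phagocytic receptors and their signaling partners held the largest difference of the list, and 2 of 6 passed an unadjusted p under 0.05. Trem2 (ENSMUSG00000023992, chr17:48346401-48354147) encodes a lipid-sensing receptor of phagocytic microglia and measured 192, 279, 185, 189 and 368 normalized counts in HT1 to HT5 and 161, 199, 175, 174 and 147 in WT1 to WT5. HT5 was 2.15 times and HT2 1.63 times the WT mean, and HT1, HT3 and HT4 lay in the upper part of the WT range. The means were 243 ± 80.2 and 171 ± 19.3 (SD, n = 5 each), 1.37-fold, a log2 difference of 0.45 (SE 0.18), with an adjusted p of 0.50 in limma and an unadjusted p of 0.0317 in an exact two-sided permutation test. Without HT5 the log2 difference was 0.29, and without HT2 and HT5 it was 0.15. Mertk (ENSMUSG00000014361, chr2:128698956-128802894), a receptor that recognizes dying cells through bridging proteins and is also made by astrocytes, measured 983, 1226, 1106, 1299 and 1377 in the HT mice and 965, 1070.4, 934, 898 and 1158 in the WT mice. HT2, HT4 and HT5 were above all WT mice, and HT1 and HT3 were inside their range. The Mertk difference was 0.25 (SE 0.09) on the log2 scale, at an adjusted p of 0.49 in limma and an unadjusted p of 0.0556 in the exact permutation test. Tyrobp, the adaptor through which TREM2 signals, measured 214, 304, 197, 251 and 428 in HT1 to HT5 and 229, 226, 204, 256 and 211 in WT1 to WT5. HT5 was 1.90 times the WT mean and HT2 1.35 times, but HT1 and HT3 were below it, and the log2 fold change of 0.25 (SE 0.17) had an adjusted p of 0.63.

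The Fc receptor genes, like Tyrobp, were highest in HT5 and next in HT2, and did not pass. Fcgr3, an activating receptor for immunoglobulin G, was 2.00 times the WT mean in HT5 and 1.34 times in HT2, and Fcer1g, the signaling chain of such receptors, was 1.73 and 1.32 times. These genes lie 165 kb apart on chromosome 1. Their log2 fold changes were 0.30 (SE 0.18) and 0.29 (SE 0.14), with limma adjusted p-values of 0.60 and 0.55. Inpp5d, which encodes the phosphatase SHIP1 that restrains this signaling, was at 478 to 693 in HT and 465 to 622 in WT mice, with only HT5 above all WT mice and a log2 fold change of 0.01 (SE 0.11).

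**Figure D2:**
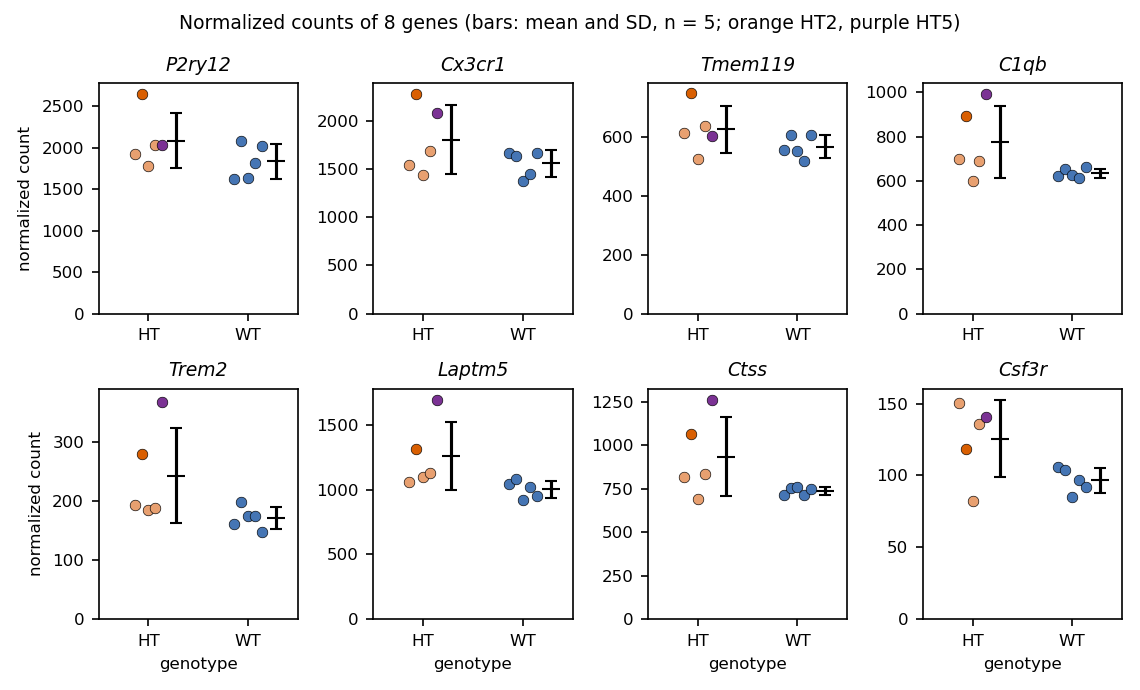
Normalized counts (vertical axes from 0) of 8 genes, 1 point per mouse, in HT (orange shades, HT2 dark orange and HT5 purple) and WT mice (blue), with bars for the mean and SD (n = 5). HT2 is the highest mouse for P2ry12, Cx3cr1 and Tmem119, with HT5 inside the WT range for P2ry12 and Tmem119, HT5 and then HT2 are the highest for C1qb, Trem2, Laptm5 and Ctss, and 4 of 5 HT mice are above the WT mice for Csf3r.

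Of the integrins and pan-leukocyte genes, Laptm5 had the smallest p of all 35 members. Laptm5 (ENSMUSG00000028581, chr4:130913125-130936141), a lysosomal membrane protein of hematopoietic cells, measured 1059, 1318, 1096, 1127 and 1690.4 normalized counts in HT1 to HT5 and 1045, 1081, 919, 1020.4 and 948 in WT1 to WT5. 4 of 5 HT mice were above all WT mice, and HT1 was above all but WT2. The means were 1258 ± 262 and 1003 ± 67.5 (SD, n = 5 each), a log2 difference of 0.31 (SE 0.11), with an adjusted p of 0.48 in limma and an unadjusted p of 0.0159 in an exact two-sided permutation test, the smallest possible with 5 against 5 mice being 0.00794. Without HT5 the difference was 0.19, and without HT2 and HT5 it was 0.13. The other genes of the group did not pass. Itgam and Itgb2 encode the subunits of complement receptor 3, which takes up C3-tagged material. Itgam ranged over 642 to 890.1 in HT and 609.9 to 709 in WT mice, with HT2 and HT5 above the rest, a log2 difference of 0.16 (SE 0.09) and an adjusted p of 0.60 in limma. Itgb2, among the least abundant members, measured 76.5, 110.5, 56.5, 64.5 and 96.4 in HT1 to HT5 and 96.8, 73.5, 69.6, 61.8 and 96.8 in WT1 to WT5. Its HT mice were both the highest (HT2) and the lowest (HT3), and the log2 fold change was 0.00 (SE 0.20). Ptprc, which encodes CD45, measured 101, 123, 80.7, 102 and 140.4 in the HT mice and 91.9, 107, 111, 93.4 and 102 in the WT mice, again with an HT mouse at each end (HT5 and HT3). Cd53, a tetraspanin of leukocytes, ranged over 168 to 296 in HT and 171 to 224 in WT mice, with a log2 fold change of 0.23 (SE 0.15).

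Among the lysosomal and other myeloid genes, Ctss and Ly86 were higher in HT mice at an unadjusted p under 0.05. Ctss (ENSMUSG00000038642, chr3:95526786-95556403) encodes the protease cathepsin S and measured 819, 1064, 691, 834 and 1258 normalized counts in HT1 to HT5 and 715, 754, 762, 711 and 747 in WT1 to WT5. The WT mice were tightly grouped, 4 HT mice were above them and HT3 was below. The Ctss means were 933 ± 226 and 738 ± 23.3 (SD, n = 5 each), a log2 difference of 0.31 (SE 0.13) at an adjusted p of 0.51 in limma and an unadjusted p of 0.0635 in the exact permutation test, and without HT5 it was 0.19. Ly86 (ENSMUSG00000021423, chr13:37345208-37419036), which encodes MD-1, a partner of a Toll-like receptor relative, measured 222, 278, 209, 211 and 373 in the HT mice and 176, 209, 179, 194 and 214 in the WT mice. HT5 was 1.92 times the WT mean and HT2 1.43 times, and HT3 and HT4 lay inside the WT range. The Ly86 difference was 0.38 (SE 0.15) on the log2 scale, at an adjusted p of 0.50 in limma and an unadjusted p of 0.0397 in an exact two-sided permutation test, and without HT5 it was 0.24. Cd68, a lysosomal glycoprotein used as a marker of phagocytosis, was 1.96 times the WT mean in HT5 and 1.3 times in HT2 and did not pass, with a log2 fold change of 0.35 (SE 0.18) and an adjusted p of 0.56. Aif1, which encodes IBA1, the protein most often stained to count microglia, ranged over 75.7 to 139 in HT and 73.6 to 115 in WT mice, with a log2 fold change of 0.05 (SE 0.19). Without HT2 and HT5 the median log2 fold change of the group was 0.10, against 0.33 with all mice.

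The border macrophage genes did not differ in a common direction. Mrc1, the mannose receptor of macrophages in the meninges and around vessels, measured 239, 377, 225, 371 and 554 normalized counts in HT1 to HT5 and 296, 271, 385, 395 and 418 in WT1 to WT5. HT1 and HT3 were below all WT mice and HT5 was above them, giving a log2 fold change of -0.06 (SE 0.21). Pf4, a chemokine of platelets and border macrophages, measured 20.4, 30.4, 18.6, 26.8 and 30.8 in the HT mice and 34.7, 19.8, 24.0, 24.5 and 18.2 in the WT mice, with WT1 highest and a log2 fold change of 0.07 (SE 0.23). 10 markers of meninges and fibroblasts were also low in HT1 and HT3 and high in HT2 and HT5, with median log2 differences from the WT mean of -0.39, -0.45, 0.27 and 0.40, and their part in the Mrc1 values was not tested. Of 12 further border macrophage genes, 11 were in the table and 9 were tested, of which 0 passed an unadjusted p under 0.05 and 5 were higher by sign (median log2 fold change 0.05), and without HT2 and HT5 0 of 9 were higher (median -0.14).

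**Figure D3:**
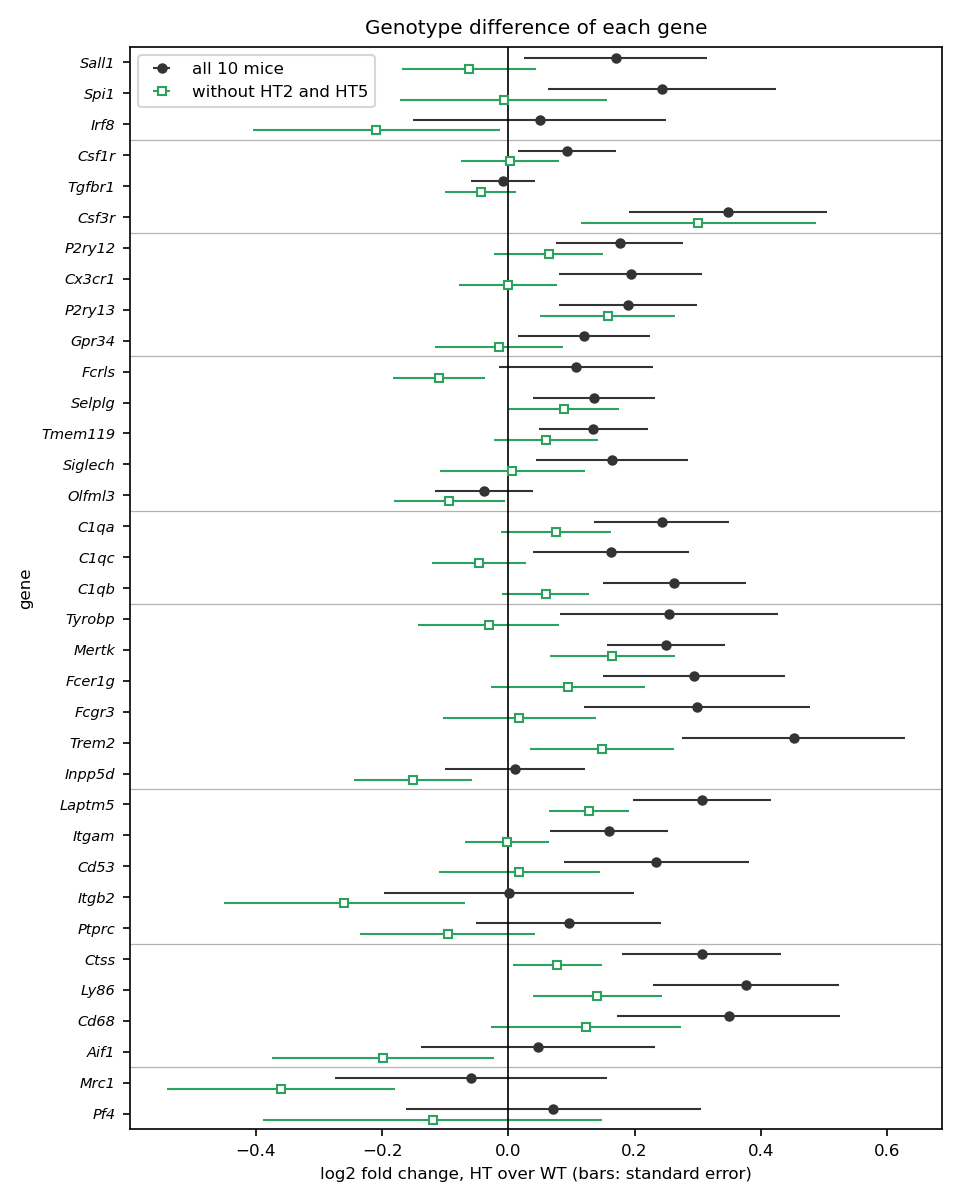
Log2 fold change (HT over WT, horizontal axis) of each of the 35 genes, ordered by role, with bars for the standard error. Black circles use all 10 mice and lie to the right of 0 for 32 genes, and green squares leave out HT2 and HT5 and lie to the right of 0 for 18 genes, with Csf3r at 0.30 the farthest right.

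Mouse by mouse, the list was highest in HT2 and HT5. The summed normalized counts of the 35 members were 20780.1, 26752, 19574, 21880.5 and 27259 in HT1 to HT5 and 20572, 21605, 19230.3, 20079 and 21203 in WT1 to WT5. HT1, HT3 and HT4 thus fell inside or close to the WT range, and HT2 and HT5 stood apart from it. HT5 was the highest mouse in 19 members (54.3%, against 11.2% of all genes) and HT2 in 12 (34.3%, against 17.1%), and the other 4 were highest in HT1 (Csf3r), HT4 (Olfml3), WT1 (Pf4) and WT2 (Tgfbr1). HT2 was above all WT mice in 30 members, against 25.2% of all genes, HT5 in 28, against 21.8%, and both were in 25, against 12.5%. HT4 was above all WT mice in 15 members, HT1 in 6 and HT3 in 1, and HT3 was below all WT mice in 13. Of all genes, 16.1%, 14.8% and 16.2% were above all WT mice in HT4, HT1 and HT3, and 16.4% were below them in HT3.

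The values of HT2 and HT5 were laid out by role. On the log2 scale, the median difference of HT2 from the WT mean ran over the 9 role groups from 0.23 (border macrophage genes) and 0.25 (growth factor and TGF-beta receptors) to 0.49 (C1q) and 0.52 (sensing receptors). In HT5 it was 0.09 for the other homeostatic genes, 0.20 for the growth factor and TGF-beta receptors, 0.24 for the sensing receptors, 0.40 for the transcription factors, 0.47 for the integrins and pan-leukocyte genes, 0.52 for the border macrophage genes, 0.64 for C1q and 0.86 for both the phagocytic and the lysosomal group. In the sensing and other homeostatic groups HT2 had the higher median of this pair, and in the phagocytic and lysosomal groups HT5 had. 5 members were above all WT mice in HT2 but not in HT5 (P2ry12, P2ry13, Tmem119, Selplg and Itgb2), where 12.7% of all genes were. 3 were so in HT5 but not in HT2 (Inpp5d, Mrc1 and Olfml3), where 9.22% of all genes were. Both shares of the 35 members are near these backgrounds. Each profile is that of a single mouse, so the contrast between them has no replicate and was not tested.

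**Figure D4:**
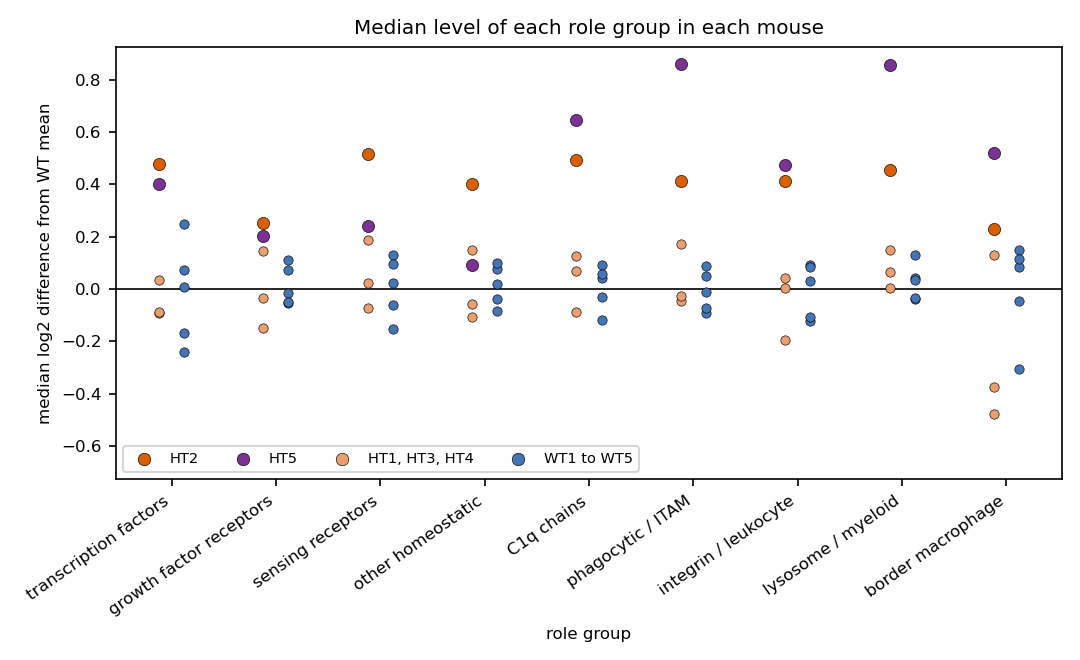
Median log2 difference from the WT mean (vertical axis) over the genes of each role group, 1 point per mouse. HT5 (purple) reaches 0.86 in the phagocytic and lysosomal groups and 0.09 in the other homeostatic group, and HT2 (dark orange) lies between 0.23 and 0.52 in all groups. The other mice are spread around 0, with HT4 above 0 in every group but the growth factor receptors (-0.035).

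The spread among HT mice was larger than among WT mice. The median SD of log2(normalized count + 1) over the members was 0.31 in HT and 0.13 in WT mice, and over all genes it was 0.15 and 0.12. The HT SD was the larger in 34 of 35 members (97.1%), against 59.1% of all genes. With HT2 and HT5 left out it was 0.15 over the members, against 0.10 over all genes.

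Relative to transcript length, the homeostatic receptor P2ry12 was the most abundant member, and C1qa came next. The normalized count per kilobase of the longest principal transcript, averaged over the 10 mice, was 836 for P2ry12, 729 for C1qa, 710.1 for C1qc, 648 for C1qb, 617 for Ctss and 613 for Csf1r. The ranges of neighbors in this order overlapped across the 10 mice, so their order is within the spread among mice. Cx3cr1 (374 per kilobase) and Tmem119 (266) were in the upper part of the list and Trem2 (190.1) in the middle. The lowest values were those of Irf8 (47.1), Pf4 (42.2), Csf3r (31.9), Itgb2 (27.0) and Ptprc (22.4). With the length of all exons of a gene in place of 1 transcript, P2ry12 and C1qa kept the first 2 ranks, C1qb came next and Ptprc was again last, while C1qc moved from rank 3 to 6, behind Ctss and Csf1r, Trem2 moved from rank 20 to 29 and Selplg from 11 to 21.

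**Figure D5:**
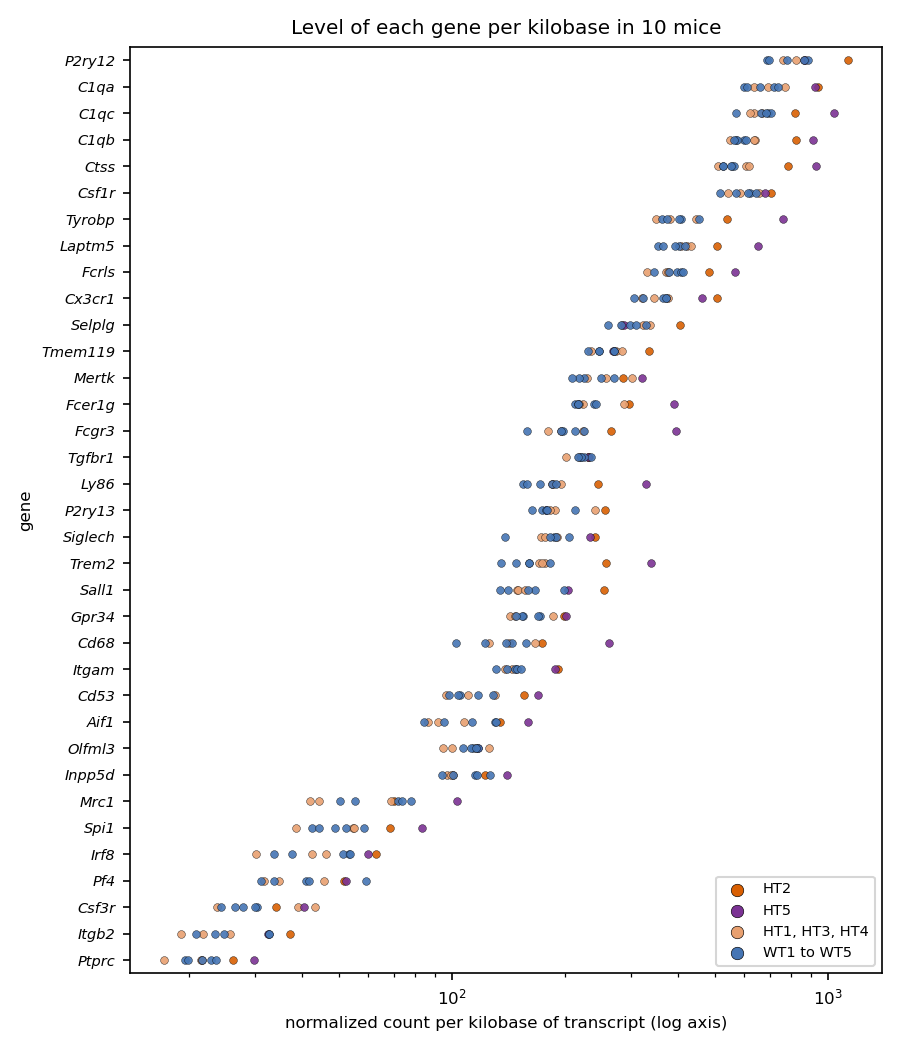
Normalized count per kilobase of transcript (horizontal log axis) of each gene, 1 point per mouse, ordered by the mean over the 10 mice. P2ry12 is at the top with a mean of 836 and Ptprc at the bottom with 22.4, and the points of HT2 (dark orange) or HT5 (purple) lie at the right end of 31 of 35 rows.

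Genes around these members were examined in further lists. Of 40 further microglia genes, 6 were higher in HT mice at an unadjusted p under 0.05 (background 4.71%) and 0 lower (4.52%). By sign 37 were higher (background 48.8%), and the median log2 fold change was 0.19, or 0.01 without HT2 and HT5. The 4 with the smallest p were Rgs10, a regulator of G-protein signaling, at 0.29 (SE 0.08), Vsir, an immune checkpoint protein, at 0.22 (SE 0.07), Tlr7, a receptor for single-stranded RNA, at 0.55 (SE 0.20), and Slco2b1, an organic anion transporter, at 0.22 (SE 0.09). Rgs10 measured 533, 531, 489, 505 and 556 normalized counts in HT1 to HT5 and 417, 452, 359, 479.8 and 435 in WT1 to WT5, with no overlap and a limma adjusted p of 0.41, and without HT2 and HT5 its log2 difference was 0.25. Among 16 ligands and partners of the receptors, 14 were tested and 3 were higher at that level, where 4.71% of all genes were. They were Apoe, a lipid carrier that TREM2 binds, at 0.28 (SE 0.10), Nrros, which anchors latent TGF-beta on microglia, at 0.31 (SE 0.11), and Pros1, a bridging ligand of MERTK, at 0.26 (SE 0.10). Apoe measured 24795, 32845, 22896, 24131 and 31992 in HT1 to HT5 and 22793, 24863, 20837, 21830.0 and 21333 in WT1 to WT5, highest in HT2 and HT5, and without them its log2 difference was 0.10. The list's median log2 fold change was 0.10, and its smallest adjusted p was 0.48. Of 14 complement components and receptors, 12 were tested, and C4b was higher at 1.00 (SE 0.34). C3 and Itgax averaged at least 10 normalized counts only through HT5 (15.8 and 15.2 over the 10 mice, 8.62 and 6.81 without HT5), and their test results are not used. C4b, which encodes complement C4, measured 299, 447, 255, 314 and 1293 in HT1 to HT5 and 272, 184, 187, 232 and 195 in WT1 to WT5, with HT5 far above the other mice, and without HT2 and HT5 its log2 difference was 0.44. Of 10 genes of amoeboid and phagocytic microglia, Cd9, a tetraspanin, was higher at 0.24 (SE 0.11), and Itgax, Clec7a and Lgals3 passed the filter only through HT5. The list split in HT5, where the log2 difference from the WT mean was 3.30 to 5.01 for 5 genes (Lgals3, Spp1, Itgax, Clec7a and Gpnmb) and -0.06 to 0.48 for the others (Lpl, Fabp5, Igf1, Cd9 and Cd63). In HT2 the list's median difference was 0.30. 0 genes of these lists had a limma adjusted p under 0.05. With Itgax not used, C4b was the only gene of the complement list higher at an unadjusted p under 0.05. Cd9 was the only such gene of the amoeboid list, and 4.71% of all genes were higher at that level.

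Of the markers of other cells, those of astrocytes and meninges were, like the members, high in both HT2 and HT5, and those of the other cell types were not high in both or were low. Of 10 astrocyte markers, 10 were higher in HT mice by sign (48.8% of all genes were) and 7 at an unadjusted p under 0.05 (4.71% of all genes). Their median log2 fold change was 0.23, or 0.08 without HT2 and HT5, and their summed counts were 163296 to 208195 in HT and 148723 to 175836 in WT mice. The 4 with the smallest p were Fgfr3 at 0.21 (SE 0.06), Aldoc at 0.27 (SE 0.09), Acsbg1 at 0.23 (SE 0.09) and Gja1 at 0.23 (SE 0.09). HT2 and HT5 had the highest astrocyte sums, with median log2 differences from the WT mean of 0.43 and 0.34. Endothelial and mural markers were at 0.39 in HT2 and 0.04 in HT5, and 0 of 10 passed, with sums of 14429 to 19558 in HT and 14544 to 16284 in WT mice. Neuronal markers were at -0.35 in HT2 and -0.08 in HT5, with sums of 166812 to 222363 in HT and 203479 to 228524 in WT mice. Of these 10, 2 were lower in HT mice at an unadjusted p under 0.05, where 4.52% of all genes were. They were Stmn2 at -0.16 (SE 0.07) and Tubb3 at -0.18 (SE 0.08). Of 10 oligodendrocyte-lineage markers, 10 were higher in HT mice by sign and 1 passed, Cspg4 at 0.18 (SE 0.08), with a median log2 fold change of 0.24, or 0.22 without HT2 and HT5, and with sums of 65800.5 to 89765 in HT and 38667 to 92337 in WT mice. Of 10 meningeal markers 1 passed, Foxc1 at 0.28 (SE 0.10), with sums of 7048 to 10954 and 8578 to 10181. Of 5 red blood cell markers, 5 were lower in HT mice by sign (median log2 fold change -0.30), with sums of 6417 to 9348 and 7022 to 11297. At an unadjusted p under 0.05 1 was lower, Hbb-bs at -0.30 (SE 0.13), where 4.52% of all genes were. Of 10 striatal markers 9 were higher by sign (median log2 fold change 0.54) and 0 passed, with sums of 7528 to 22903 and 6526 to 18069.9 and with Isl1 at 0 in WT3 and WT5. Of 5 choroid plexus markers, 3 were in the table and Clic6 at 0.93 (SE 0.36) was higher, with sums of 81.2 to 113 and 77.7 to 102. The part of these cells in the values of the 35 members was not tested.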

How the data were processed

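RNA from the prefrontal cortex of 10 mice (5 HT, 5 WT) had been sequenced as stranded mRNA libraries. The authors estimated transcript abundance with Salmon 1.1.0 (GC bias correction, GRCm38), imported it with tximport and divided the estimates by DESeq2 1.30.1 size factors. The deposited values are therefore a normalized signal per gene (normalized counts), not whole reads, and depth is unknown, so no count test was run. How rows of low value were removed is not given in the sources used here.

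Symbols and positions came from GENCODE M21 (18205 of 18216 genes matched) and upstream windows from RefSeq. With limma 3.58.1 in R 4.3.3, log2(value + 1) was fitted on genotype alone with a mean-variance trend for the 16781 genes that averaged at least 10. P-values were Benjamini-Hochberg adjusted over all genes tested, and the threshold was 0.05. A fold change on this scale understates the change of low genes. The fit was tested on simulated data. For single genes an exact two-sided permutation test over the 10 mice was added.

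The members, role groups and marker lists were chosen with earlier results of these data known, so no test over a list was made. Values in every mouse are given for members with an unadjusted p under 0.05, for the 5 highest and 5 lowest per kilobase, and for Cx3cr1, P2ry12, Tmem119, Csf1r, the C1q chains, Spi1, Sall1, Trem2, Tyrobp, Mrc1 and Pf4. Of the further lists, at most 4 genes with an unadjusted p under 0.05 are named. Alternatives covered the pseudocount, filter, scaling, variance prior, sample weights, GC content and length, a replicate block, and leaving out mice.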

Additional observations from a re-analysis of the deposited data

Results flagged for a closer look

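P2ry12 in HT2 measured 2649 normalized counts, and HT1, HT3, HT4 and HT5 measured 1781 to 2033. Its gap to the nearest other HT mouse made up 0.7104 of the range of the group, where Dixon's critical value for 5 samples is 0.71. The values of the members were examined in 70 groups of 5 mice (35 genes in 2 genotypes), of which 1 passed and about 3.5 would pass by chance.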

How the results depend on the processing

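The count of members past the adjusted threshold (0 of 35) and the count of lower members at an unadjusted p under 0.05 (0) were the same under every alternative run, and the Arid1b log2 fold change stayed past the threshold in all of them, at -0.61 to -0.56 (limma adjusted p 5.02e-05 to 0.00497). The count of higher members at an unadjusted p under 0.05 (8 of 35) was 5 with a fixed variance prior (4.49% of all genes), 3 with sample quality weights (4.42%) and 0 without HT2 and HT5 (2.95%). Leaving out 1 mouse at a time gave 2 (without HT2, and also without HT5) to 17 (without HT3). Exact permutation called 3 members (8.77% of all genes). With HT2 left out the log2 fold change moved by over 1.5 times or changed sign in 19 members, with HT5 left out in 24 and with each other mouse left out in 6 to 11. The count higher by sign (32) was 18 without HT2 and HT5. With the replicate block 11 members were higher at an unadjusted p under 0.05 (4.79% of all genes), 32 were higher by sign, 0 passed after adjustment and the median was 0.17. The deviations of mice with the same number correlated at -0.04 to 0.10 (mean 0.038, against -0.0091 for different numbers), and 5 of 10 mice correlated best with their own number, a hint of pairing from the data. The labels give no shared litter or batch and not every pair passed a correlation of 0.1, so the mice were not treated as paired.

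18 members kept their direction in all alternatives, and 17 reversed in at least 1. Without HT2 and HT5 the log2 fold changes that turned negative were C1qc -0.046, Tyrobp -0.031, Fcrls -0.11, Cx3cr1 -0.0011, Sall1 -0.06, Gpr34 -0.015, Itgam -0.0019, Aif1 -0.20, Inpp5d -0.15, Spi1 -0.0071, Irf8 -0.21, Pf4 -0.12, Itgb2 -0.26 and Ptprc -0.10. Upper-quartile scaling gave Tgfbr1 0.0020. Quantile normalization gave Tgfbr1 0.0011, Aif1 -0.011 and Itgb2 -0.056. Quality weights gave Aif1 -0.016, Inpp5d -0.064, Irf8 -0.062 and Itgb2 -0.13. Correction for GC content and length, with and without the block, gave Inpp5d -0.013 and Itgb2 -0.037. With 1 mouse left out, Fcrls ran from -0.0028 to 0.19, Tgfbr1 from -0.024 to 0.026, Aif1 from -0.076 to 0.14, Olfml3 from -0.086 to 0.016, Inpp5d from -0.074 to 0.060, Mrc1 from -0.24 to 0.083, Irf8 from -0.057 to 0.21, Pf4 from -0.019 to 0.20 and Itgb2 from -0.12 to 0.12. The cause was not tested.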

Other observations

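The genes in this paragraph were chosen after their values were seen, and the comparison concerns 1 mouse. In HT5, 5 of the 10 listed genes of amoeboid and phagocytic microglia stood far above the other 9 mice. Spp1, which encodes osteopontin, measured 1242 normalized counts in HT5 and 42.5 to 108 in the others. Gpnmb, a glycoprotein of phagocytic cells, measured 705 against 8.62 to 29.7, Clec7a, which encodes the beta-glucan receptor dectin-1, 124 against 0.815 to 14.8, Itgax, an integrin subunit, 90.4 against 0 to 15.6, and Lgals3, which encodes galectin-3, 66.6 against 1.85 to 9.53. Of the other 5, Lpl in HT5 (1269) lay within the range of the WT mice (1168 to 1573), as did Igf1 (1141, against 803 to 1264). Fabp5, Cd9 and Cd63 were highest in HT5 by small margins, at 5125, 1489 and 966, where the next highest mouse measured 5101, 1435 and 951. The astrocyte filament gene Gfap measured 13936 in HT5 and 3072 to 5007 in the others. The ratio of Trem2 to P2ry12 was 0.181 in HT5 and 0.0724 to 0.107 in the others, HT2 (0.105) included. The labels name no injury or treatment for this mouse.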
